A study of Danio rerio with 12 samples.

Results

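The mevalonate arm of cholesterol synthesis is the chain of enzymes that turns acetyl-CoA into farnesyl and geranylgeranyl diphosphate. It was followed here through 9 zebrafish genes, acat2, hmgcs1, hmgcra, mvk, pmvk, mvda, idi1, fdps and ggps1. They were chosen by their place in the pathway, with earlier results of these data known. Every array probe whose RefSeq accession belonged to one of these symbols was taken, which gave 18 probes of 8 genes among 43603 probes in all. ggps1, the synthase of geranylgeranyl diphosphate, had 0 probes under this rule and is not analysed here. Of the 18 probes, 17 were well above background on all 11 arrays used, and pmvk's probe on 0 of them.

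The samples were pools of 30 whole wild-type WIK larvae, exposed in wells of medium between 4 and 6 days post fertilization with a renewal after 24 h. The T0901317 group (3 arrays used) received 2 mM T0901317 and the GW3965 group (4 arrays) 1 mM GW3965, both synthetic activators of LXR, the oxysterol receptor of the nucleus. The DMSO group (4 arrays) received the vehicle alone, and all 3 groups held 0.1% DMSO. The doses are printed as the labels give them, and since they differ, a comparison of the agonists is one of the groups as treated. Whether their unit lost a micro sign, which would make the true doses far lower, cannot be settled from the labels. The submitters described the replicates as biological quadruplicates of pooled RNA and left out T0901317 replicate 2, so each array stands for a pool and not for a larva. In whole larvae, fewer cells of a type and less RNA per cell cannot be told apart.

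In the pathway, a thiolase and HMG-CoA synthase build HMG-CoA from acetyl-CoA, and HMG-CoA reductase, the target of statins, reduces it to mevalonate in the step that limits the rate. A pair of kinases and a decarboxylase then make isopentenyl diphosphate, which an isomerase and prenyl synthases assemble into farnesyl diphosphate for squalene, ubiquinone, dolichol and protein prenylation. In mammals the genes of the arm are targets of the transcription factor SREBP-2, which is released from the endoplasmic reticulum when membrane sterol is low. LXR in mammals acts when sterol is in excess and drives sterol export and, through SREBP-1c, fatty acid synthesis.

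Values per array are scaled signals, the probe's fluorescence as a percent of that array's 75th percentile, which lay between 332 and 390.5 intensity units on the arrays used. Between 78.8% and 83.2% of probes were well above background on these arrays, and 0 spots were saturated. T0901317 replicate 2 stood apart from the other arrays, with 89.8% of probes well above background and Pearson correlations across probes of 0.949 to 0.956 with them, against 0.987 to 0.994 within the groups of arrays used. Each of the 3 slides held 1 group, so slide and group cannot be told apart in any comparison below. Among 10 lists of markers for larval tissues, every gene on the array was well above background on at least 1 array, except 1 of 3 erythrocyte genes. Known LXR targets were higher for 7 of 8 tested genes under each agonist. They were listed as a check of exposure, with earlier results of these data known. Of named genes, 1.26% were called higher under T0901317 and 1.36% under GW3965. The largest change on the list was that of fads2, up by 4.14 ± 0.11 (log2, SE) under T0901317 and by 3.96 ± 0.11 under GW3965. abca1b had the lowest value on the list under both agonists and was called under neither. Its log2 fold change was 0.26 ± 0.16 under T0901317 (adjusted p = 0.550, limma) and 0.47 under GW3965.

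Under T0901317 against DMSO, the arm was higher at most of its measured steps. Of the 17 tested probes, 11 were called higher and 0 lower (limma, Benjamini-Hochberg adjusted p under 0.05 over 36737 probes), against 1.42% of all tested probes called higher and 1.12% called lower. Counted by the brightest probe of each gene, hmgcs1, hmgcra, mvk, mvda and fdps were higher, 5 of 7 genes, and 0 were lower, against 1.26% of named genes called higher and 0.968% called lower. acat2 and idi1 were not called. The median log2 fold change over the 7 genes was 0.48, with a range of -0.04 to 2.04, and the median over all tested probes was 0.03. In 6 of 7 genes all T0901317 arrays lay above all DMSO arrays, as they did for 6.73% of named genes.

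Under GW3965 against DMSO, 9 of 17 probes were called higher and 0 lower, against 1.14% of all tested probes called higher and 4.24% called lower. By the brightest probe acat2, hmgcra, mvk, mvda and fdps were higher, again 5 of 7 genes, and 0 were lower, against 1.36% of named genes called higher and 3.20% called lower. hmgcs1 and idi1 were not called by that probe. The median over the 7 genes was 0.44 (log2), with a range of -0.02 to 1.69, and the median over all tested probes was 0.00. The GW3965 arrays lay above all DMSO arrays in 5 of 7 genes, as they did for 8.00% of named genes. Both agonist comparisons used the same 4 DMSO arrays.

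Several of these calls sat near the threshold, so the number of genes called moved with single arrays. Leaving out 1 array in turn gave 2 to 5 genes called under T0901317 and 2 to 4 under GW3965, with hmgcra and mvda called in every case.

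**Figure D1:**
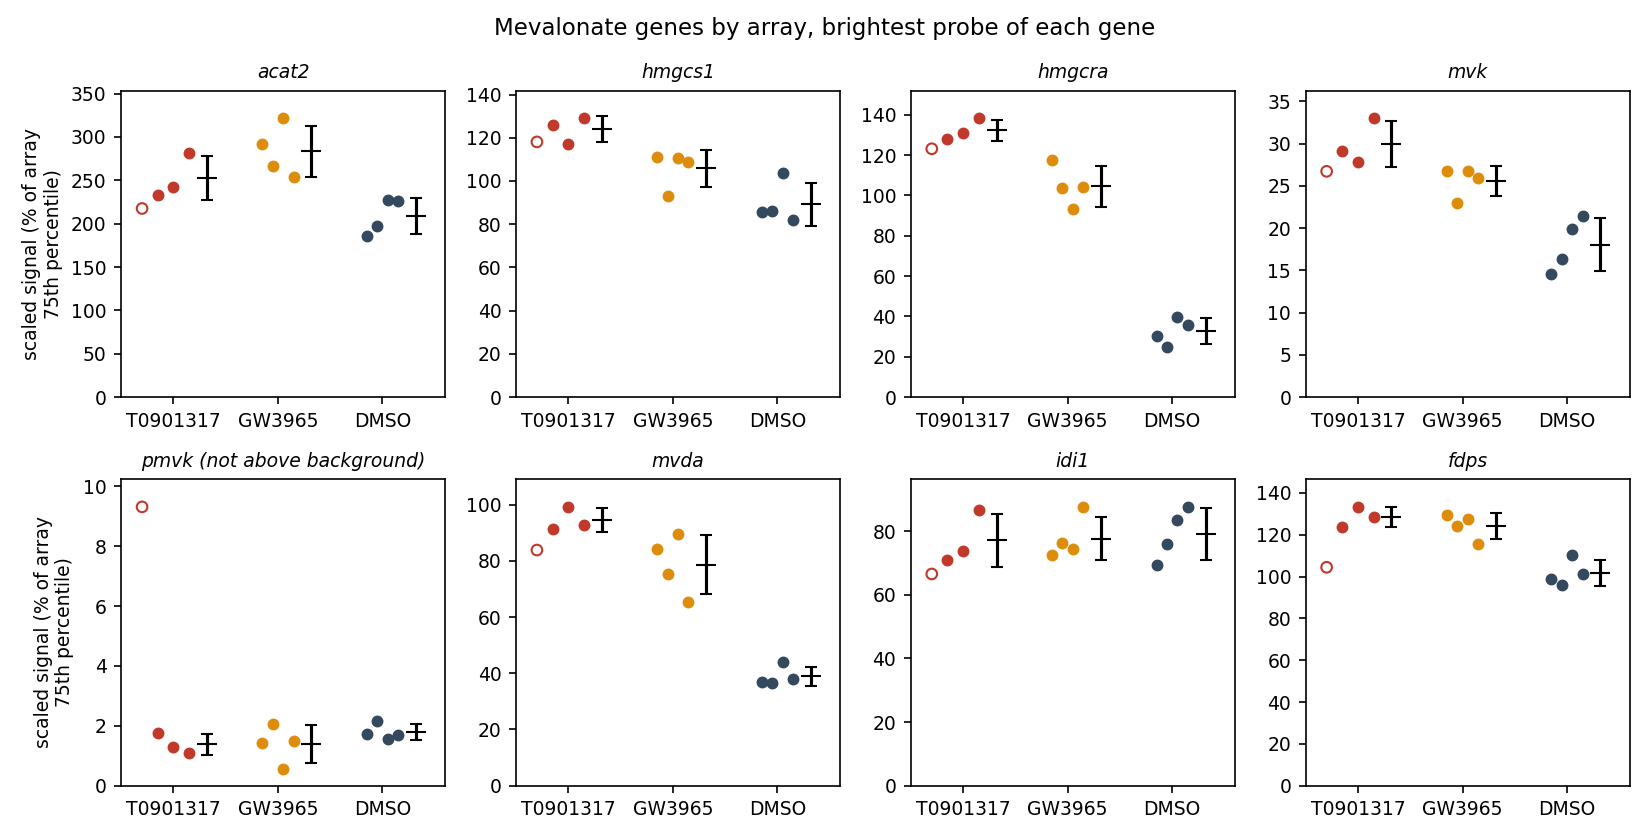
Scaled signal (percent of the array's 75th percentile, linear axes from 0) of the brightest probe of each gene on every array, by group, with the mean and SD over the arrays used as black bars; the open T0901317 point is replicate 2, which the submitters left out. The 3 T0901317 arrays and the 4 GW3965 arrays stand above the 4 DMSO arrays for hmgcra and mvda, the 3 groups lie together for idi1, and pmvk stayed near background on the arrays used.

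The entry of the pathway was represented by acat2, the cytosolic acetyl-CoA acetyltransferase that joins a pair of acetyl-CoA molecules. Its brightest probe, A_15_P173496, read 233, 243 and 281 in the T0901317 pools, 291, 266, 321 and 254 in the GW3965 pools, and 186, 198, 227 and 226 in the DMSO pools. All agonist arrays lay above all DMSO arrays, while the agonist groups overlapped each other. The log2 fold change was 0.27 ± 0.11 (SE, adjusted p = 0.294, limma) under T0901317 and 0.44 ± 0.10 (adjusted p = 0.0366, limma) under GW3965, a 1.36-fold higher level. The other 2 acat2 probes had log2 fold changes of 0.10 and 0.23 under T0901317 and of 0.26 and 0.30 under GW3965, none called, and their groups overlapped. The GW3965 call ended on leaving out any of 7 of the 11 arrays (adjusted p between 0.0507 and 0.102), every DMSO array and GW3965 replicates 1 to 3. It also ended in 6 of 12 other settings (0.0518 to 0.125). Among them was normexp background correction with an offset of 50, called normexp below (log2 0.34, adjusted p = 0.0659, limma). The offset is added to every signal, so it lowers the fold changes of dim probes by itself. Its share in the normexp values was not tested.

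hmgcs1, the cytosolic synthase that makes HMG-CoA, had 4 probes. The brightest, A_15_P102310, read 126, 117 and 129 in the T0901317 pools, 111, 93.1, 110.5 and 108.9 in the GW3965 pools, and 85.4, 86.1, 103.7 and 81.7 in the DMSO pools. All T0901317 arrays were above the other 8, and GW3965 replicate 2 lay within the DMSO range. The level was 1.39-fold higher under T0901317 (log2 0.48 ± 0.10, adjusted p = 0.0353, limma) and showed a log2 fold change of 0.25 ± 0.09 under GW3965 (adjusted p = 0.178).

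The other 3 hmgcs1 probes were dimmer, and their changes were smaller under normexp, which adds an offset of 50. The second probe read 15.8, 16.0 and 16.3 in the T0901317 pools, 13.2, 12.8, 12.5 and 12.8 in the GW3965 pools, and 8.01, 8.85, 11.9 and 9.13 in the DMSO pools, with no overlap between any of the 3 groups. Under T0901317 the second probe was 1.71-fold higher (adjusted p = 0.00679, limma), the third 1.99-fold (adjusted p = 0.0137) and the fourth 1.93-fold (adjusted p = 0.0249). Under GW3965 the second was 1.37-fold higher (adjusted p = 0.0369) and the third 1.61-fold (adjusted p = 0.0323), and the fourth had a log2 fold change of 0.48 ± 0.17 (adjusted p = 0.153). So the gene was called higher under GW3965 by 2 of its 4 probes but not by the brightest. With normexp and its offset in place of the scanner's own correction, the T0901317 log2 fold change was 0.45 for the brightest probe. The others gave 0.38, 0.28 and 0.27 in order of brightness. The GW3965 values were then 0.22, 0.21, 0.19 and 0.13 in the same order. Under normexp the fourth probe's T0901317 call ended (adjusted p = 0.0731), as did the GW3965 calls of the second (0.113) and the third (0.107). The brightest probe's T0901317 call ended on leaving out any of 9 of the 11 arrays, all but DMSO replicate 3 and GW3965 replicate 2 (adjusted p between 0.0514 and 0.118), and in 3 of 12 other settings (0.0748 to 0.228). The second probe's T0901317 call held in all 11 cases, and its GW3965 call ended in 9 of them, holding without DMSO replicate 3 or without T0901317 replicate 4 (adjusted p between 0.0507 and 0.0947 in the 9). The third probe's call ended without T0901317 replicate 1 under T0901317 (adjusted p = 0.0674), and under GW3965 in 5 cases, DMSO replicates 1 and 4 and GW3965 replicates 1, 3 and 4 (0.0663 to 0.0921). The fourth probe's T0901317 call ended in 4 cases, DMSO replicates 2 and 4 and T0901317 replicates 1 and 3 (0.0562 to 0.0956).

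hmgcra, which encodes HMG-CoA reductase, showed the largest change of the arm by brightest probe under both agonists. Its brightest probe, A_15_P624101, read 128, 131 and 138 in the T0901317 pools, 118, 103.5, 93.1 and 104 in the GW3965 pools, and 30.3, 24.8, 40.0 and 36.0 in the DMSO pools. The lowest agonist array was thus far above the highest DMSO array, and all T0901317 arrays were above all GW3965 arrays. The level was 4.10-fold higher under T0901317 (log2 2.04 ± 0.15, adjusted p = 3.86e-05, limma) and 3.23-fold higher under GW3965 (log2 1.69 ± 0.14, adjusted p = 0.000103). By log2 fold change hmgcra stood at rank 7 of 12092 named genes under T0901317 and at rank 8 under GW3965. The dimmer probe of the gene, at 8.83, 7.34 and 9.11 in the T0901317 pools, 8.69, 6.95, 6.19 and 4.92 in the GW3965 pools, and 3.15, 2.32, 4.09 and 3.68 in the DMSO pools, was 2.59-fold higher under T0901317 (adjusted p = 0.00841) and 2.02-fold higher under GW3965 (adjusted p = 0.0148). The brightest probe's calls held in all 23 alternative settings. With normexp and its offset of 50 in place of the scanner's own correction, the dimmer probe's log2 fold change was 0.34 under T0901317. Under GW3965 it was 0.19, and the call ended there (adjusted p = 0.140, limma). How much of these drops came from the offset was not tested.

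Zebrafish carry a paralog, hmgcrb, which had 1 probe. It read 17.6, 18.2 and 21.3 in the T0901317 pools, 18.2, 15.2, 21.8 and 16.7 in the GW3965 pools, and 11.9, 16.3, 17.6 and 13.5 in the DMSO pools, and both agonist groups overlapped the DMSO group. The T0901317 overlap was narrow, with replicate 1 at 17.59 against 17.60 for DMSO replicate 3. The log2 fold change of hmgcrb was 0.37 ± 0.16 under T0901317 (adjusted p = 0.306, limma) and 0.28 ± 0.14 under GW3965 (adjusted p = 0.334). At an unadjusted p under 0.05 hmgcrb was higher under T0901317, as were 7.10% of named genes. The log2 ratio of hmgcra to hmgcrb within an array averaged 2.80 ± 0.09 in the T0901317 pools (SD, n = 3) and 2.55 ± 0.31 in the GW3965 pools (n = 4), against 1.14 ± 0.37 in the DMSO pools (n = 4). This ratio was picked after the values were seen and is given as a description. The lowest ratio was 2.70 in the T0901317 pools and 2.09 in the GW3965 pools, against a highest of 1.41 in the DMSO pools.

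The kinases follow. mvk, mevalonate kinase, read 29.1, 27.8 and 33.0 on its brightest probe in the T0901317 pools, 26.8, 23.0, 26.7 and 25.9 in the GW3965 pools, and 14.6, 16.3, 19.9 and 21.4 in the DMSO pools. No agonist array fell within the DMSO range. The level was 1.68-fold higher under T0901317 (log2 0.74 ± 0.13, adjusted p = 0.0161, limma) and 1.43-fold higher under GW3965 (log2 0.52 ± 0.12, adjusted p = 0.0350). The dimmer probe had a log2 fold change of 0.39 ± 0.18 under T0901317 (adjusted p = 0.350) and 0.52 ± 0.16 under GW3965 (adjusted p = 0.1000). The brightest probe's T0901317 call ended without DMSO replicate 2 or T0901317 replicates 1 or 4 (adjusted p between 0.0542 and 0.0678), and its GW3965 call without DMSO replicates 1 or 2 or GW3965 replicates 1, 3 or 4 (0.0671 to 0.0940). With normexp the log2 fold change was 0.41 under T0901317 and 0.28 under GW3965, both still called, and other settings ended the T0901317 call in 2 of 12 cases (0.0594 to 0.0635) and the GW3965 call in 4 of 12 (0.0508 to 0.0589).

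pmvk, phosphomevalonate kinase, did not rise well above background with its 1 probe, which read 1.75, 1.29 and 1.09 in the T0901317 pools, 1.41, 2.07, 0.544 and 1.49 in the GW3965 pools, and 1.74, 2.16, 1.56 and 1.68 in the DMSO pools. These values give no fold change, and a difference in pmvk was not detectable with this probe.

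mvda, the decarboxylase that makes isopentenyl diphosphate, was the gene of the arm with the second largest change. Its brightest probe, A_15_P207211, read 91.2, 99.2 and 92.8 in the T0901317 pools, 84.1, 75.2, 89.7 and 65.5 in the GW3965 pools, and 37.0, 36.6, 44.1 and 38.1 in the DMSO pools. The agonist arrays stood clear of the DMSO arrays, and the T0901317 arrays all lay above the GW3965 arrays. The level was 2.43-fold higher under T0901317 (log2 1.28 ± 0.11, adjusted p = 0.000194, limma) and 2.01-fold higher under GW3965 (log2 1.01 ± 0.11, adjusted p = 0.000516). The second probe gave 2.43-fold under T0901317 (adjusted p = 0.000389) and 1.88-fold under GW3965 (adjusted p = 0.00142). Normexp with its offset of 50 gave the brightest probe a log2 fold change of 0.97 under T0901317 and 0.72 under GW3965, both still called.

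The third mvda probe, A_15_P737271, separated the agonists. It read 25.1, 22.6 and 25.3 in the T0901317 pools, 15.1, 12.2, 15.3 and 12.8 in the GW3965 pools, and 14.4, 12.0, 13.4 and 13.0 in the DMSO pools. The T0901317 arrays stood alone, and the GW3965 and DMSO arrays overlapped. It was 1.85-fold higher under T0901317 against DMSO (log2 0.89 ± 0.10, adjusted p = 0.00141, limma), and the log2 fold change under GW3965 was 0.07 ± 0.10, with a 95% interval of -0.15 to 0.28 (adjusted p = 0.772). Within an array, the log2 ratio of this probe to the brightest averaged -1.96 ± 0.15 in the T0901317 pools (SD, n = 3) and -2.50 ± 0.12 in the GW3965 pools (n = 4), against -1.56 ± 0.15 in the DMSO pools (n = 4). This ratio too was picked after the values were seen and is given as a description. With normexp the probe's log2 fold change against DMSO was 0.48 under T0901317 (adjusted p = 0.00172) and 0.07 under GW3965. The 3 probes of mvda carry the same accession, so their disagreement lies below the level of the gene name, and the reason was not tested.

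**Figure D2:**
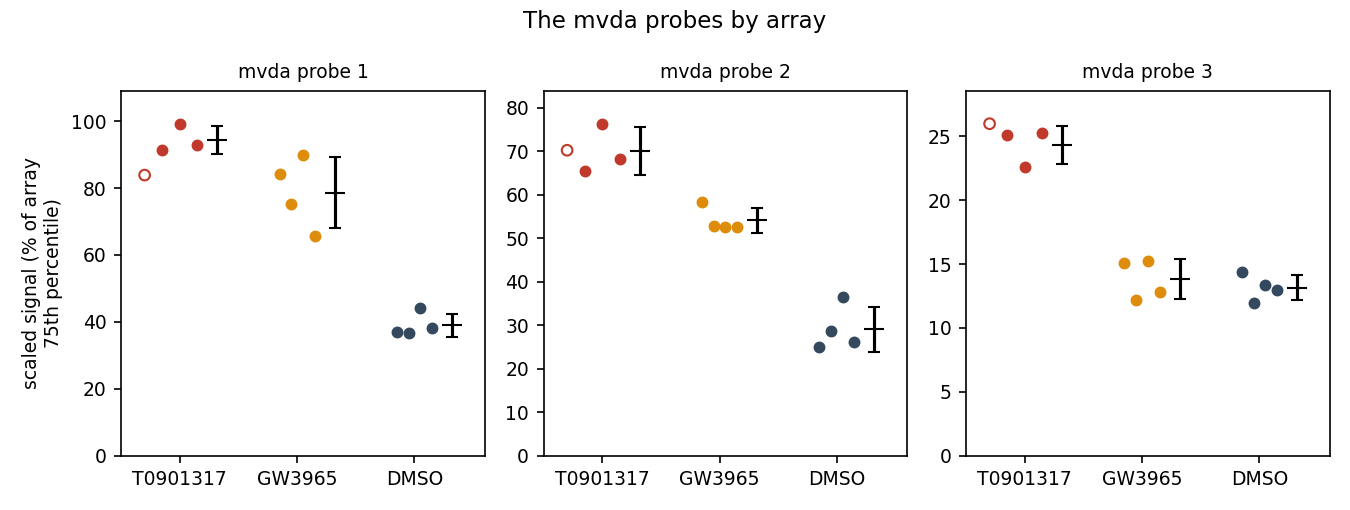
Scaled signal (percent of the array's 75th percentile, linear axes from 0) of the 3 mvda probes, numbered from the brightest, on every array by group, with mean and SD over the arrays used as black bars and T0901317 replicate 2 as an open point. On probes 1 and 2 both agonist groups stand above DMSO; on probe 3 T0901317 averages 24.3, while GW3965 averages 13.8 and DMSO 13.2.

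idi1, the isomerase that converts isopentenyl to dimethylallyl diphosphate, was the gene whose agonist arrays all lay within the DMSO range. It read 70.7, 73.9 and 86.6 in the T0901317 pools, 72.5, 76.4, 74.3 and 87.4 in the GW3965 pools, and 69.4, 76.0, 83.4 and 87.6 in the DMSO pools. The 3 groups overlapped, and the array numbered 4 was the highest in each. The log2 fold change was -0.04 ± 0.11 under T0901317 (95% interval -0.28 to 0.21, adjusted p = 0.940, limma) and -0.02 ± 0.10 under GW3965 (-0.25 to 0.20, adjusted p = 0.932). Its 1 probe leaves no second reading of the gene.

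fdps, farnesyl diphosphate synthase, ends the measured chain. Its brightest probe read 124, 133 and 128 in the T0901317 pools, 129, 124, 128 and 116 in the GW3965 pools, and 99.0, 96.0, 110.3 and 101 in the DMSO pools, so every agonist array exceeded every DMSO array. The level was 1.27-fold higher under T0901317 (log2 0.34 ± 0.08, adjusted p = 0.0474, limma) and 1.22-fold higher under GW3965 (log2 0.29 ± 0.07, adjusted p = 0.0415). The dimmer probe was not called, with a log2 fold change of 0.35 ± 0.12 under T0901317 (adjusted p = 0.175) and 0.31 ± 0.11 under GW3965 (adjusted p = 0.140). The brightest probe's calls ended on leaving out any array but DMSO replicate 3 (adjusted p between 0.0568 and 0.136 under T0901317, and between 0.0509 and 0.113 under GW3965). They also ended in 7 of 12 other settings under T0901317 (0.0513 to 0.204) and in 7 of 12 under GW3965 (0.0514 to 0.143).

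**Figure D3:**
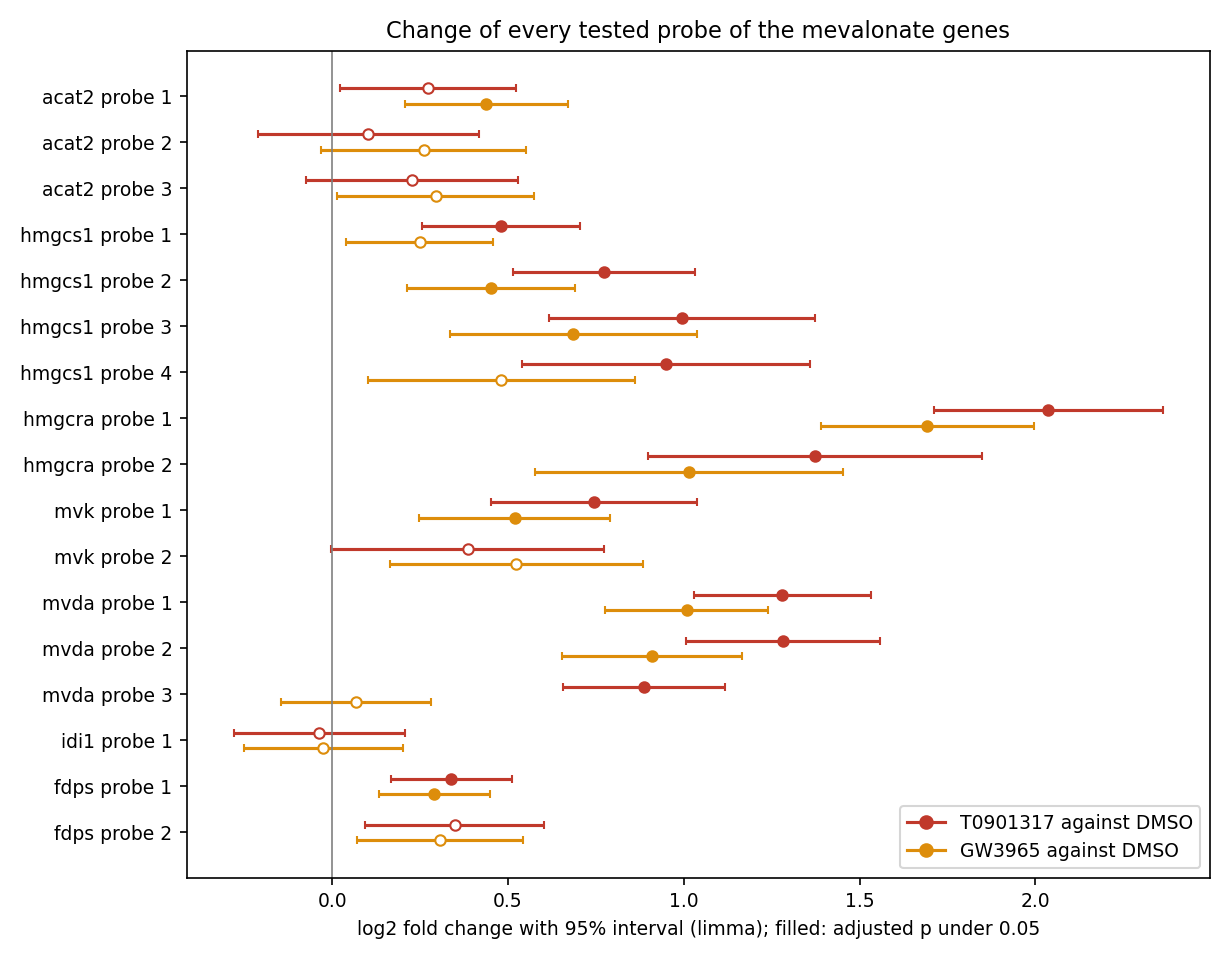
Log2 fold change of each of the 17 tested probes, numbered from the brightest within a gene, for T0901317 (red, upper of each pair) and GW3965 (orange, lower), each against DMSO; bars are 95% intervals and filled points have an adjusted p under 0.05. hmgcra probe 1 lies farthest right at 2.04 and 1.69, idi1 lies near 0 under both, and mvda probe 3 is at 0.89 under T0901317 and 0.07 under GW3965.

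The comparison of T0901317 with GW3965 was made directly, over the 7 genes and 17 probes and with p-values adjusted over all 36737 probes. By the brightest probe 0 of 7 genes were called in either direction (limma), against 2.80% of named genes called higher and 0.132% called lower. At an unadjusted p under 0.05, hmgcs1, hmgcra and mvda, 3 of 7 genes, were higher in the T0901317 pools and 0 lower, against 6.81% of named genes higher and 3.00% lower at that threshold. The third mvda probe was called, 1.77-fold higher in the T0901317 pools (log2 difference 0.82 ± 0.10, adjusted p = 0.000964), 1 of 17 probes, against 4.28% of all tested probes called higher and 0.114% called lower. With normexp its log2 difference was 0.41 (adjusted p = 0.00435).

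For the brightest probe of each gene the intervals bound the difference between the agonist groups. The log2 difference, T0901317 minus GW3965, was 0.34 for hmgcra (95% interval 0.02 to 0.67, adjusted p = 0.363) and 0.27 for mvda (0.02 to 0.52, adjusted p = 0.340). It was 0.23 for hmgcs1 (0.01 to 0.46, adjusted p = 0.385) and 0.23 for mvk (-0.07 to 0.52, adjusted p = 0.584). For fdps it was 0.05 (-0.12 to 0.22) and for idi1 -0.01 (-0.26 to 0.23). acat2 was the gene with the most negative value, -0.17 (-0.42 to 0.08, adjusted p = 0.668). Among the dimmer probes, the second hmgcs1 probe gave 0.32 (0.06 to 0.58) and the fourth 0.47 (0.06 to 0.88). The second mvda probe gave 0.37 (0.10 to 0.65). Intervals spanned 0 for the third hmgcs1 probe, at 0.31 (-0.07 to 0.69), and the dimmer hmgcra probe, at 0.36 (-0.12 to 0.83). The dimmer fdps probe gave 0.04 (-0.21 to 0.30), and none of these was called. The dimmer acat2 and mvk probes had negative values, from -0.16 to -0.07. All T0901317 arrays lay above all GW3965 arrays for hmgcs1, hmgcra, mvk and mvda, 4 of 7 genes, as they did for 7.07% of named genes. Leaving out DMSO replicate 3 raised the number of called probes to 3, adding the second hmgcs1 probe (adjusted p = 0.0354) and the second mvda probe (adjusted p = 0.0449). With the probes of a gene averaged, mvda was called higher in the T0901317 pools (log2 0.49, adjusted p = 0.0109).

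Most of the genes that follow the arm were higher in the same comparisons. Of 14 tested genes between squalene and cholesterol, 9 were higher and 0 lower under T0901317, against 1.26% of named genes called higher, with a median log2 fold change of 1.09. Under GW3965 8 were higher and 0 lower, against 1.36% of named genes called higher, with a median of 0.74. Called lower were 0.968% of named genes under T0901317 and 3.20% under GW3965. The same shares stand behind the counts of called genes in all lists that follow. sqlea, squalene epoxidase, read 19.8, 16.1 and 19.4 in the T0901317 pools, 14.01, 12.6, 13.7 and 12.1 in the GW3965 pools, and 4.65, 3.38, 6.20 and 5.58 in the DMSO pools. Its log2 fold change was 1.93 ± 0.18 under T0901317 (adjusted p = 0.000277, limma) and 1.44 ± 0.17 under GW3965 (adjusted p = 0.000873). lss, lanosterol synthase, rose by 1.99 ± 0.21 (log2) under T0901317 and 1.55 ± 0.19 under GW3965. msmo1, a sterol monooxygenase, rose by 1.47 ± 0.14 under T0901317 and 1.05 ± 0.13 under GW3965. sc5d, a sterol desaturase, rose by 1.46 ± 0.11 under T0901317 and 0.99 ± 0.10 under GW3965, and it was the gene of this list called between the agonists, by 0.48 ± 0.11 in favour of T0901317 (adjusted p = 0.0366). fdft1, squalene synthase, was not called, at -0.17 ± 0.43 under T0901317 (adjusted p = 0.927, limma) and -0.36 ± 0.40 under GW3965 (adjusted p = 0.688). DMSO replicate 1 read 17.2 for fdft1, against 4.56, 3.79 and 3.93 in the other DMSO pools.

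Among 14 tested regulators of the pathway, 3 were higher and 0 lower under T0901317 (median log2 fold change 0.06), and 2 were higher and 1 lower under GW3965 (median 0.08). insig1, which in mammals holds SREBP precursors in the endoplasmic reticulum and directs the degradation of HMG-CoA reductase, read 309, 353 and 365 in the T0901317 pools, 291, 324, 283 and 314 in the GW3965 pools, and 168, 189.9, 159.6 and 196 in the DMSO pools. It was 1.92-fold higher under T0901317 (adjusted p = 0.000717) and 1.70-fold higher under GW3965 (adjusted p = 0.00107). srebf1, the gene of SREBP-1 and an LXR target in mammals, was higher by 1.27 ± 0.14 (log2) under T0901317 and 0.64 ± 0.13 under GW3965, and it differed between the agonists by 0.63 ± 0.14 (adjusted p = 0.0221). srebf2, the gene of SREBP-2, was higher by 0.38 ± 0.09 under T0901317 (adjusted p = 0.0464) and gave 0.27 ± 0.08 under GW3965 (adjusted p = 0.0894). mbtps2, a protease that cleaves SREBP in mammals, fell by 0.41 ± 0.09 under GW3965 (adjusted p = 0.0320) and gave -0.31 ± 0.10 under T0901317 (adjusted p = 0.171).

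Of 5 tested genes of sterol uptake, mylipa and stard4 were higher under each agonist and 0 were lower. mylipa, a ubiquitin ligase that degrades the LDL receptor in mammals, was up by 1.52 ± 0.14 under T0901317 and 1.52 ± 0.13 under GW3965 (log2), and it is also on the list of LXR targets. stard4, a sterol carrier, was up by 0.98 ± 0.08 under T0901317 and 0.79 ± 0.08 under GW3965. ldlra, an LDL receptor gene, gave 0.51 ± 0.16 under T0901317 (adjusted p = 0.159) and 0.36 ± 0.15 under GW3965 (adjusted p = 0.236). Of 6 tested genes that supply acetyl-CoA, 0 were called under T0901317 (limma, 1 of 6 higher at an unadjusted p under 0.05). Under GW3965 1 was called higher, slc25a1a, a mitochondrial citrate carrier (log2 0.36 ± 0.09, adjusted p = 0.0405), and 2 of 6 were higher at an unadjusted p under 0.05. aclya, an ATP citrate lyase gene, gave 0.32 ± 0.10 under T0901317 (adjusted p = 0.132, limma) and 0.28 ± 0.09 under GW3965 (adjusted p = 0.106). Of 14 tested genes listed as users of farnesyl and geranylgeranyl diphosphate, 0 were called under either agonist (limma). These included prenyltransferases and dolichol synthases, and also genes that do not themselves consume the diphosphates, such as zmpste24, a protease, and chm, a Rab escort protein. At an unadjusted p under 0.05 each comparison with DMSO had 1 gene of this list higher and 1 lower. At that threshold, also used above for acetyl-CoA supply, 7.10% of named genes were higher and 5.42% lower under T0901317. Under GW3965 the shares were 9.57% higher and 8.82% lower. The gene with the smallest p in this list was dhdds, a subunit of the dolichol-forming prenyltransferase, at -0.39 ± 0.14 under T0901317 (adjusted p = 0.210) and -0.46 ± 0.13 under GW3965 (adjusted p = 0.0703).

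**Figure D4:**
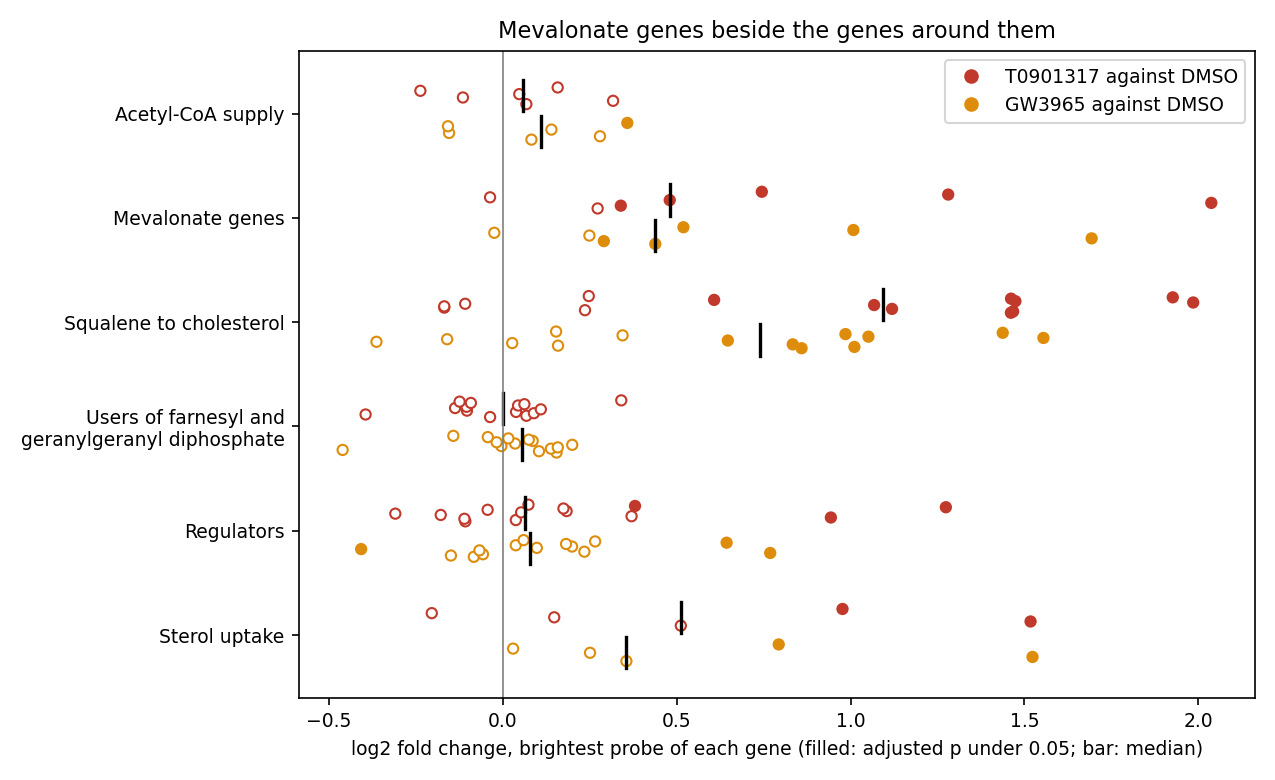
Log2 fold change of the brightest probe of each tested gene, by list, for T0901317 against DMSO and GW3965 against DMSO; each point is 1 gene, filled where the adjusted p is under 0.05, and the line marks the list's median. The mevalonate genes have medians of 0.48 and 0.44, the squalene to cholesterol genes 1.09 and 0.74, and the genes listed as users of farnesyl and geranylgeranyl diphosphate 0.00 and 0.05.

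Some tissue markers moved alongside these results. The summed scaled signal of 7 liver markers ranged from 86501 to 95483 in the T0901317 pools and from 76543 to 95871 in the GW3965 pools, against 74299 to 85508 in the DMSO pools. The T0901317 range of this sum thus lay narrowly above the DMSO range, and the GW3965 range overlapped it. Of the 7, fabp10a, a liver fatty acid binding protein, was higher under T0901317 (log2 0.47 ± 0.11, adjusted p = 0.0432, limma) and under GW3965 (0.40 ± 0.10, adjusted p = 0.0389), while cp, ceruloplasmin, was lower under GW3965 (-0.40 ± 0.09, adjusted p = 0.0285). The median over the liver list was -0.13 under T0901317 and -0.08 under GW3965. Of 9 enterocyte markers, apoa4b.1 was lower under T0901317 (-0.54 ± 0.08, adjusted p = 0.00735) and 0 were called under GW3965 (limma). Values of the 9 ran from -0.78 to 0.20 under T0901317 (median -0.17) and from -0.77 to 0.37 under GW3965 (median -0.13). Between the agonists, 1 of the 9 was called lower in the T0901317 pools and 0 higher, against 0.132% of named genes called lower and 2.80% higher. At an unadjusted p under 0.05, 0 enterocyte markers were higher and 4 lower under T0901317, and 2 were higher and 2 lower under GW3965. At that threshold 7.10% of named genes were higher and 5.42% lower under T0901317, and 9.57% were higher and 8.82% lower under GW3965. The summed signal of 4 macrophage and neutrophil markers was 103 to 115 in the T0901317 pools and 103 to 151 in the GW3965 pools, against 136 to 146 in the DMSO pools, and 1 of the 4, lyz, was called lower under both (-0.87 ± 0.14 under T0901317 and -1.01 ± 0.13 under GW3965). The other 3 were not called, and their values reached 0.30 under T0901317 and 0.48 under GW3965, both for csf1ra. The list's median was -0.18 under T0901317 and -0.06 under GW3965. Under GW3965, 1 of 7 pancreas markers was higher (cel.1) and 1 of 6 skeletal muscle markers lower (mylpfa), and 0 were called in those lists under T0901317. The remaining 5 lists, erythrocyte, neuron, lens, photoreceptor and skin, had 0 called under either agonist (limma). All 5 photoreceptor markers had negative values under T0901317, from -0.75 to -0.24 with a median of -0.36, and 3 of them had an unadjusted p under 0.05. Under GW3965 their median was -0.16, and 1 of 5 was lower at that threshold. Outside the liver list and the macrophage and neutrophil list, the summed signal of each agonist group overlapped the DMSO range. The part of the tissue markers in the mevalonate results was not tested.

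The members' mean profile, each brightest probe centred on its own mean over the 11 arrays, placed every agonist array above every DMSO array. It ran from 0.26 to 0.40 (log2) on the T0901317 arrays and from 0.11 to 0.24 on the GW3965 arrays, against -0.54 to -0.24 on the DMSO arrays. Among the members, mvk was nearest to this mean profile (root mean square difference 0.0949 over 11 arrays), and hmgcra (0.589) and idi1 (0.350) were the farthest. The 6 named genes outside the arm with the most similar profiles were anxa3b (0.103), arl13a (0.109), si:busm1-57f23.1 (0.111), sptlc2b (0.122), pank1b (0.137) and scarb2a (0.142). Their log2 fold changes lay between 0.60 and 0.87 under T0901317 and between 0.45 and 0.73 under GW3965, values that follow from how they were picked. sptlc2b encodes a subunit of serine palmitoyltransferase, the first enzyme of sphingolipid synthesis, and pank1b a pantothenate kinase, the first enzyme of coenzyme A synthesis.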

How the data were processed

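Whole-larva RNA was labelled with Cy3 and hybridised to 1-colour Agilent arrays, 12 deposited and 11 used. The deposited scanner files hold spot intensity values, per the file headers background-subtracted signals from Agilent Feature Extraction 11.0.1.1. The deposited series table holds the same linear intensity values, uncentred, with a log2 difference from the scanner files of at most 0 and column medians of 62.6 to 103. Flagged spots were dropped and spots of a probe averaged. The log2 signal minus each array's 75th percentile was fitted with limma 3.58.1 (lmFit and eBayes, R 4.3.3) over all 3 groups, on 36737 probes well above background on at least 3 of 11 arrays, with Benjamini-Hochberg adjustment and a threshold of 0.05. The fit had 8 residual and 2.80 prior degrees of freedom. Probes were named by matching RefSeq accessions to a current RefSeq gene table, which named 25069 probes of 12858 genes and left 18534 unnamed. The array was designed on genome build Zv 8, so no coordinates are given.

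The probe with the highest mean stood for a gene where genes were counted. Named genes were every member, hmgcrb and the 6 most similar profiles. From each list, up to 4 genes with the smallest p in either comparison with DMSO were named. The called markers, csf1ra, abca1b and fdft1 were named after their values were seen. Members and lists were chosen with earlier results of these data known. Same-numbered arrays were checked for pairing by the correlation of their deviations from the group means, which ran from 0.0641 to 0.503 for T0901317 and DMSO and from 0.0411 to 0.419 for GW3965 and DMSO (at least 1 pair under 0.1 in each), and from 0.164 to 0.537 for T0901317 and GW3965. By the rule that every pair exceed 0.1, numbers paired the agonist groups and not the others. Replicate 4 gave the highest correlation in every comparison, and arrays of unlike number were not compared. The main fit used no pairing in any comparison, that of the agonists included. The tests were tried on simulated data. Alternatives covered background correction (normexp with an offset of 50), scaling, the filter, the summary of probes, the samples, the replicate block and the moderation. The planned promoter search was not run.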

Additional observations from a re-analysis of the deposited data

Results flagged for a closer look

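Over 36 groups of 4 arrays checked, 3 held an array far from its group, where chance gives about 1 in 20. GW3965 replicate 2 was low on the brightest hmgcs1 probe, at 93.1 against 108.9 to 111 on the other GW3965 arrays. The same array was low on the fourth hmgcs1 probe, at 4.49 against 5.87 to 5.90. GW3965 replicate 1 was high on the second mvda probe, at 58.4 against 52.5 to 52.8.

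T0901317 replicate 2, which the submitters left out, lay above every DMSO array for 4 of 7 genes by brightest probe, as it did for 37.8% of named genes. It read 118 for hmgcs1 (DMSO 81.7 to 103.7), 123 for hmgcra (DMSO 24.8 to 40.0), 26.7 for mvk (DMSO 14.6 to 21.4) and 83.9 for mvda (DMSO 36.6 to 44.1). It lay below every DMSO array for 1 of 7, idi1, at 66.5 (DMSO 69.4 to 87.6), as it did for 24.8% of named genes. Its pmvk value was 9.31, against at most 2.16 on the 11 arrays used.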

How the results depend on the processing

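The brightest hmgcra probe and the first 2 mvda probes kept their calls under both agonists in every setting tried, and no called probe changed sign. Of the called probes, 5 of 11 under T0901317, 3 of 9 under GW3965 and 1 of 1 between the agonists kept their call throughout. Of the probes not called, 0 gained a call in some setting under T0901317 and 2 under GW3965. These 2 were the dimmer fdps probe with the replicate block (adjusted p = 0.0450, limma) and the dimmer mvk probe with quantile scaling (adjusted p = 0.0485). Under T0901317, probes called fell to 7 with only the 2 groups compared, to 5 without replicate 4 in all groups (an alternative chosen after seeing the data) and to 6 to 11 with 1 array left out (7 without DMSO replicate 2, 6 without T0901317 replicate 1). Genes called fell to 2, 2 and 2 to 5 in the same settings and to 3 with the replicate block. Probes called in all (932) became 613 with T0901317 replicate 2 put back, 477 with only the 2 groups, 303 without replicate 4 in all groups and 413 to 894 with 1 array left out. Of these, 522 were higher in the main setting, 389 with replicate 2 put back, 280 with only the 2 groups and 188 without replicate 4. Under GW3965, probes called fell to 5 with normexp, without a filter or with only the 2 groups, to 4 with T0901317 replicate 2 put back or without replicate 4, and to 4 to 8 with 1 array left out. Genes called fell to 3 with quantile scaling, the mean over probes or only the 2 groups, to 2 without a filter, with replicate 2 put back or without replicate 4, and to 2 to 4 with 1 array left out. Probes called in all (1976) became 920 with replicate 2 put back, 997 without replicate 4 and 1213 to 1938 with 1 array left out. Of all probes, 418 were called higher in the main setting, 443 with normexp, 347 without a filter and 348 with only the 2 groups. The number called higher was 221 with replicate 2 put back and 194 without replicate 4. Between the agonists, probes called became 2 with only the 2 groups and 1 to 3 with 1 array left out, and genes called became 1 with the mean over probes. Probes called in all (1616) became 988 with normexp, 862 without replicate 4 and 1056 to 1595 with 1 array left out. The replicate block gave 8, 8 and 1 mevalonate probes called for T0901317, GW3965 and their difference; between the agonists, where the numbers paired, it changed no call. The values that changed sign were not called in the main setting or after the change. With 1 array left out, the idi1 log2 fold change ran from -0.12 to 0.022 under T0901317, from -0.086 to 0.026 under GW3965 and from -0.099 to 0.047 between the agonists, the third acat2 probe from -0.18 to 0.027 and the dimmer fdps probe from -0.037 to 0.090 between the agonists. Scaling to the median of bright probes gave 0.0070 for idi1 under GW3965. With T0901317 replicate 2 put back, the difference between the agonists was -0.026 for fdps and 0.31 for the dimmer mvk probe. The causes were not tested. Slide as a block was not run because each slide held 1 group. pmvk was limited by signal over background.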
